A study of Caenorhabditis elegans with 2 samples.

Results

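Chromosome X of Caenorhabditis elegans carries 276 of the 612 nuclear genes annotated as tRNA, 45.1% of them on a chromosome that makes up 17.7% of the nuclear genome. The members were all genes of biotype tRNA on X in the Ensembl annotation of WBcel235, the assembly that the peak lists call ce11, and RefSeq gave identical coordinates for all 276. The assay was ChIP-seq, which sequences the DNA that comes down with an immunoprecipitated protein, here MADF-9, a protein with the MADF domain, a Myb/SANT-like DNA-binding domain named after the Drosophila factor Adf-1. Every worm was of the strain RW12324, in which CRISPR editing placed TY1, EGFP and 3xFLAG in the madf-9 gene on chromosome IV, and an antibody against GFP was used. Whole animals were taken as L4 larvae, 48 hours after they left L1 starvation, so all tissues are mixed, and the fragments ranged between 200 and 800 bp. There was 1 group with 2 biological replicates of the same strain. Neither an untagged strain nor a control library was analysed here. The files are peak lists without read counts, so the depth is unknown, and each interval below covers counting error over genes only.

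A tRNA gene is transcribed by RNA polymerase III from a promoter that lies inside the gene. The factor TFIIIC binds 2 internal elements, the A box near the 5′ end of the gene and the B box in its 3′ part, and it places TFIIIB just upstream of the start, which recruits the polymerase. Transcription ends at a short run of T after the gene. Many tRNA genes are exact copies of each other, so that the same RNA is made from several places in the genome.

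A gene was counted as bound when the summit of a deposited peak lay in its body or within 250 bp on either side. The main set was the thresholded list called between the replicates, which holds peaks with an irreproducible discovery rate (IDR, a rate of regions that would not be found again in a repeat) of at most 0.01. The signal of a peak is the strength that the authors' caller gave it. The unit of that signal is unknown, so signals are compared within 1 list only. Each replicate also has a thresholded set of its own and a ranked list of all its candidate regions, and a joint ranked list stands behind the main set.

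The sequences below belong to 5 of the strongest bound genes, shown for their internal promoter, against which the summits are placed below, followed by 3 arginine genes that differ in binding. They are read from the RefSeq WBcel235 genome on the strand of each gene, 5′ to 3′. Capitals mark the A box and the B box found in each gene.
C04A11.t1 (leucine, anticodon CAA, chrX:13665555-13665673, + strand): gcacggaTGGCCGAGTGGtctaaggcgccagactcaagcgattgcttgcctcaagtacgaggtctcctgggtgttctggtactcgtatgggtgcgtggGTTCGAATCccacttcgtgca
C33G3.t2 (lysine, anticodon TTT, chrX:14063946-14064018, - strand): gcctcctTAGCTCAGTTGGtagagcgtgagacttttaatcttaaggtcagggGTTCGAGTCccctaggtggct
F15G9.t1 (alanine, anticodon TGC, chrX:9743589-9743660, + strand): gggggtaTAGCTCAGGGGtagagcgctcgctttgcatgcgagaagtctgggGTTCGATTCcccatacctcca
ZK563.t1 (threonine, anticodon AGT, chrX:3371422-3371493, - strand): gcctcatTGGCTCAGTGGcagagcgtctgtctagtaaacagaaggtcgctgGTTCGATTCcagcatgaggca
R04D3.t2 (valine, anticodon TAC, chrX:13307034-13307106, + strand): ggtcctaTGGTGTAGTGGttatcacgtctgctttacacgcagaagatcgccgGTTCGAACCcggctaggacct
F09B9.t1 (arginine, anticodon ACG, bound, chrX:10145156-10145228, + strand): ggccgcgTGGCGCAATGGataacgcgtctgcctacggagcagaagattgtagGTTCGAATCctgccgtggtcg
K01A12.t1 (arginine, anticodon ACG, not bound, chrX:8623603-8623675, + strand): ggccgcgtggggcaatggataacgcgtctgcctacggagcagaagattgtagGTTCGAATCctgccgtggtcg
F49E7.t3 (arginine, anticodon TCG, not bound, chrX:1089173-1089245, - strand): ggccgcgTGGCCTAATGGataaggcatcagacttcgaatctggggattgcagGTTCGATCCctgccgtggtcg

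MADF-9 peaks were present at most tRNA genes of X. In the main set 170 of the 276 genes were bound, 61.6% (95% Wilson interval 55.7 to 67.1). Genes of other biotypes on X were bound in 5.99% of cases under the same rule, although their median length of 352.5 bp against 72 bp for the members gives a summit more room. Of the 336 tRNA genes on the autosomes 50.9% were bound (45.6 to 56.2).

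Fewer genes reached the threshold in each replicate on its own. Replicate 1 alone called 111 of the 276 X genes, 40.2% (34.6 to 46.1), where the background was 3.67% for other X genes and 37.2% for autosomal tRNA genes. Replicate 2 alone called 119, 43.1% (37.4 to 49.0), against backgrounds of 3.6% and 31%. The share on X stood above the autosomal share in the main set and in both replicates, by 3.02 percentage points in replicate 1 and 12.2 in replicate 2. The Wilson intervals of X and the autosomes overlapped in the main set and in replicate 1 and were apart in replicate 2. Of the single autosomes, chromosome II had 63.2% bound (50.2 to 74.5) and chromosome V 37.2% (27.3 to 48.3), so the X share of the main set lay within the range of the autosomes, as it did in replicate 1. In replicate 2 the X share was above that of each autosome, the nearest being chromosome I with 42.4%.

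The calls of the replicates recurred for fewer than 1 in 2 of the bound genes. Among the 170 bound X genes, 81 were in the sets of both replicates, 27 in that of replicate 1 only, 29 in that of replicate 2 only and 33 in neither. Among the 106 genes that were not bound, 12 were called in 1 replicate. Below the threshold, the joint ranked list had a region at 91 of the 106 genes that were not bound (85.8%, 78.0 to 91.2) and at all 170 bound genes. That list is dense: it had a region at 74.9% of other X genes, at 89.3% of autosomal tRNA genes and in 45.5% of 572 bp windows laid end to end over X, the length of a median member with its flanks. In all, 8 members had none in any of the 3 ranked lists.

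In the joint ranked list the median signal was 97.9 over the bound X genes (quartiles 82.1 and 141, range 53.2 to 275) and 45.7 over the 91 genes with a region that were not bound (quartiles 34.3 and 61.05, range 14.2 to 91.1). The 2 ranges overlap between 53.2 and 91.1. In the list of replicate 1 the medians were 52.1 for bound and 26.04 for other genes, and in that of replicate 2 they were 50.1 and 25.96. Both replicates thus ranked the bound genes above the others, and the main set was called from these same libraries.

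The signals of the 2 replicates rose together over the X genes. Across the 225 genes with a region in both lists, Spearman's rho was 0.73 and Pearson's r of the log2 signals was 0.73, as a description over genes that share both libraries. Within the 165 bound genes rho was 0.67. Within the 60 genes that were not bound it was -0.10, a class that holds no gene called from both replicates together, so nothing is read from this value. The summits of the 2 replicates lay a median of 20 bp apart, and 113 of the 225 were within 20 bp.

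**Figure D1:**
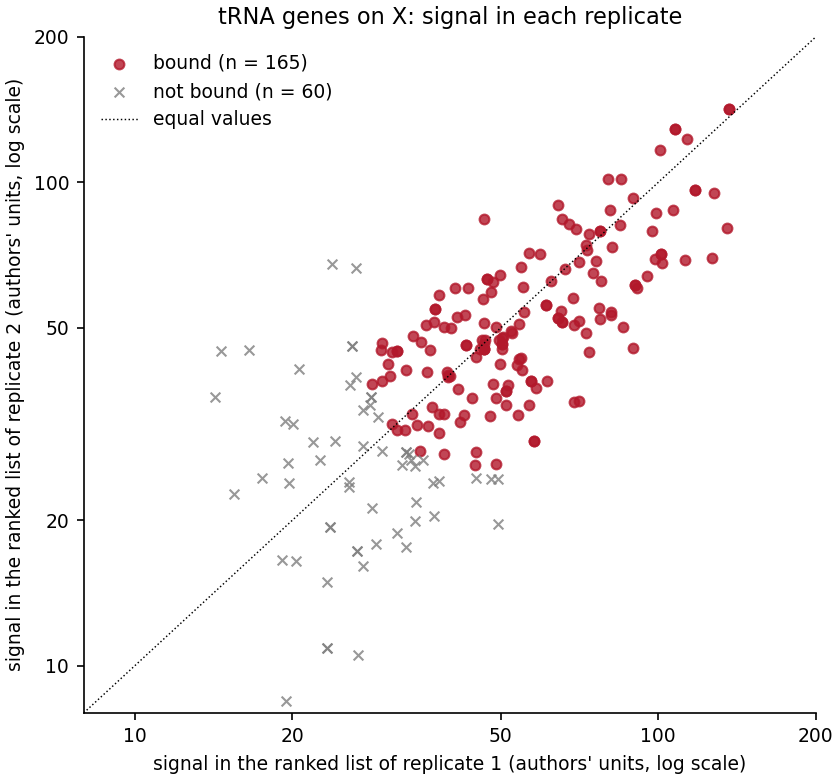
Each point is a tRNA gene on X with a region in both ranked lists, at its signal in replicate 1 (x axis) and replicate 2 (y axis), both in the authors' units on log scales. Circles are the 165 bound genes and crosses the 60 genes that were not bound, and the crosses lie mostly at the lower left.

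Glycine, leucine, serine, glutamate and asparagine genes led the X list. The highest peak at a tRNA gene of X, ranked 47th of the 1637 peaks of the main set, lay between M02F4.t1, a glycine gene with anticodon TCC (chrX:3036164-3036235, + strand), and M02F4.t2, a glutamate gene with anticodon CTC, whose 5′ ends face each other across 116 bp. Its signal was 275 in the joint list, 137 in replicate 1 and 142 in replicate 2. The summit was 16 bp upstream of the first base of M02F4.t1, and both genes were called in both replicates. C04A11.t1, the intron-containing leucine gene printed above, had a joint signal of 245, with 114 in replicate 1 and 123 in replicate 2, and no other tRNA gene has its sequence. C53C7.t2, a serine gene (chrX:13046366-13046447, - strand), had 243 in the joint list, with 108 in replicate 1 and 129 in replicate 2.

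The next members were close in strength. C28G1.t1, a glutamate gene with anticodon TTC, had a joint signal of 225 (101 in replicate 1 and 116 in replicate 2), and it is the 1 member that overlaps an exon of a protein-coding gene. F41D9.t3, an asparagine gene on the opposite strand of sulp-3, had 223, with 135 in replicate 1 and 80.6 in replicate 2. C33G3.t2, the lysine gene above, had 222, with 128 in replicate 1 and 94.98 in replicate 2. These genes were all called in both replicates. F15G9.t1, an alanine gene inside him-4, had 215 and shared its summit with the alanine gene F15G9.t2, which follows in the same direction after a gap of 86 bp. ZK563.t1 followed with 205, R04D3.t2 with 198 and T07H6.t2, which also has the alanine anticodon TGC, with 189. All 10 strongest members were in the own sets of both replicates.

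The strongest aspartate gene was F52H2.t1, inside the amino acid transporter gene aat-3, with a joint signal of 172. The highest proline gene was ZK899.t1 with 176, the highest isoleucine gene C42D8.t1 with 186 and the highest glutamine gene H08J11.t3, inside the junction gene ajm-1, with 149. Among amino acids with at least 10 X genes, arginine had the lowest top gene, F09B9.t1 with 131, at 46.4 in replicate 1 and 83.9 in replicate 2. That is still above the median of 97.9 over the bound X genes. At the weak end of the bound genes stood K02A4.t1, a serine gene with a joint signal of 53.2, and F09B9.t2, a second copy of the arginine gene, with 59.1. The next were C25F6.t1 (methionine) with 60.3, C16B8.t1 (proline) with 60.6 and T01B4.t3 (valine) with 62.2. None of these 5 genes was called in either replicate alone.

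Among genes that were not bound, K11E4.t1, a lysine gene, had the highest joint signal, 91.1. Its replicates differed widely, with 23.8 in replicate 1 and 67.9 in replicate 2, which called it. F12D9.t4, an arginine gene, followed with 77.4 and was called in neither replicate, with 49.5 in replicate 1 and 24.4 in replicate 2. C30E1.t1, a glycine gene, had 76.5 and was called in replicate 1 only, with 49.4 there against 19.7 in replicate 2. The serine genes Y7A5A.t1 and Y7A5A.t4, whose 5′ ends face each other, share a region with 73.8 in the joint list and were called in replicate 2 only. At the edge of the 250 bp window, F54F7.t1 (248 bp from the nearest summit) and F22F1.t4 (245 bp) were counted as bound, while F22F1.t2 (257 bp) and H08J11.t4 (278 bp) were not.

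Most summits lay in the 5′ part of the gene. Of the 149 X summits near a tRNA gene, 112 (75.2%) fell inside the gene body nearest to them, 30 upstream and 7 downstream. The median position was 17 bp from the first base along the gene's strand (quartiles 4 and 32), against 21 bp (5 and 36.5) for the 156 autosomal summits. In the own sets of the replicates the X median was 18 bp in replicate 1 and 14 bp in replicate 2. Of the 10 strongest members, 4 had their summit upstream of the gene, M02F4.t1 at -16 bp, C53C7.t2 at -29 bp, C28G1.t1 at -27 bp and C33G3.t2 at -14 bp, and the other 6 inside it, at 5 to 43 bp. Set against the internal promoter, the median summit was 5.5 bp downstream of the middle of the A box, with 89 of 145 summits within 20 bp of it, and 41 bp upstream of the middle of the B box, with 23 within 20 bp. Of 141 summits at genes with both boxes, 111 were nearer to the A box. These distances are small beside the median peak width of 260 bp and the fragments of 200 to 800 bp. The summits of the 2 replicates also lay a median of 20 bp apart. The lists thus cannot tell at which box, if either, the protein sits.

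**Figure D2:**
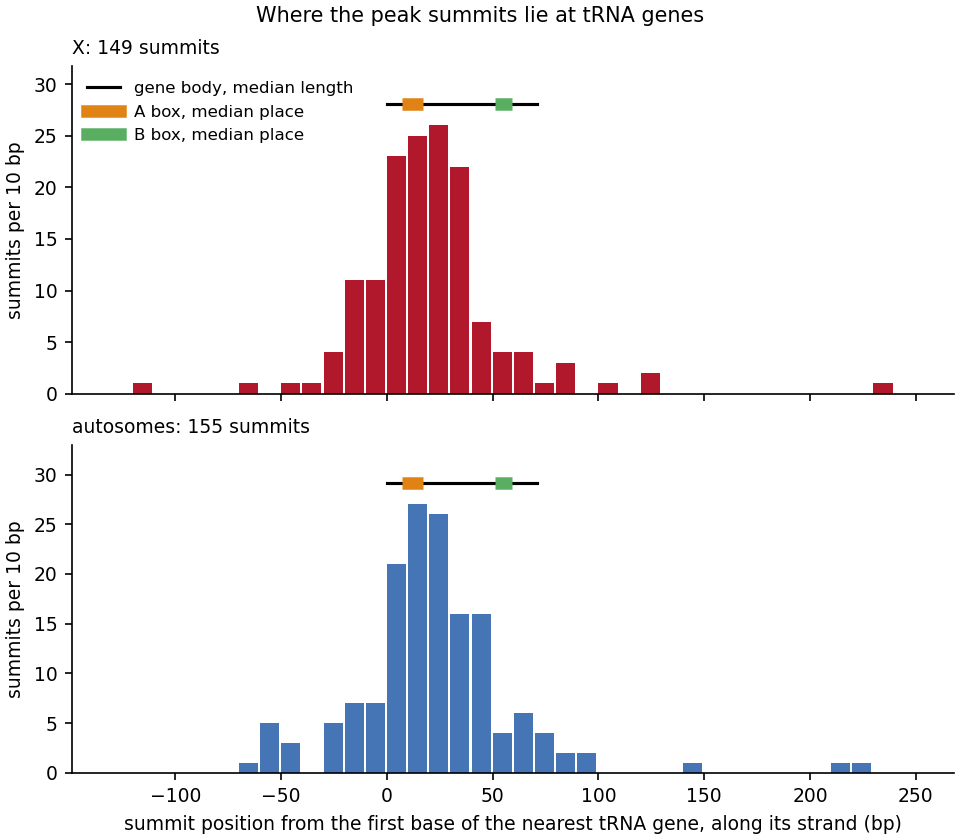
The bars count summits of the main set per 10 bp by their distance from the first base of the nearest tRNA gene, along its strand, for the 149 X summits (top) and 155 of the 156 autosomal summits (bottom), leaving out 1 at -226 bp. The black line is a gene of median length, with the median places of the A box and the B box; in both panels the summits gather over the 5′ part of the gene.

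Not every bound gene had a summit of its own. Of the 170 bound genes, 148 were the nearest tRNA gene to a summit and 22 were counted through a summit nearer to another tRNA gene. A single summit served 1 gene in 128 cases, 2 genes in 19 and 3 genes in 2. The last were the cysteine genes K01A12.t5, K01A12.t4 and K01A12.t2 around a summit of signal 91.7, and the glycine genes R04E5.t1, R04E5.t3 and R04E5.t2 around a summit of signal 89.0. With every summit given only to its nearest gene, 53.6% of X genes (47.7 to 59.4) and 45.2% of autosomal tRNA genes were bound.

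Bound shares differed between amino acids, and the intervals are wide because most groups are small. Aspartate had 11 of 12 X genes bound (91.7%, 64.6 to 98.5), glycine 18 of 20 (90.0%, 69.9 to 97.2) and glutamine 13 of 15 (86.7%, 62.1 to 96.3). At the other end stood histidine with 3 of 9 (33.3%, 12.1 to 64.6), arginine with 10 of 27 (37.0%, 21.5 to 55.8), isoleucine with 5 of 13 (38.5%, 17.7 to 64.5) and threonine with 6 of 14 (42.9%, 21.4 to 67.4). The interval of glycine lies wholly above that of arginine, but this pair was picked from 20 amino acids after the shares were seen. The glycine genes are also not all separate peaks, since R04E5.t1, R04E5.t2 and R04E5.t3 share a summit and T10B10.t1 and T10B10.t2 another. No difference between amino acids is therefore read from these intervals. The remaining 13 amino acids lay between 47.1% for leucine and 83.3% for asparagine.

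The replicates kept this order in part. In replicate 1 alone glycine had 12 of 20 and arginine 4 of 27 genes called, and in replicate 2 alone they had 9 and 6. On the autosomes glycine had 24 of 35 genes bound and arginine 7 of 17. Asparagine stood furthest apart, with 5 of 6 genes bound on X (43.7 to 97.0) against 2 of 14 on the autosomes (4.01 to 39.9). It was picked for this gap, and its bound X genes ZK154.t2 and ZK154.t5 share a summit of signal 67.5. Replicate 2 alone had 5 of 6 against 1 of 14, and replicate 1 alone only 2 of 6 against 3 of 14.

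**Figure D3:**
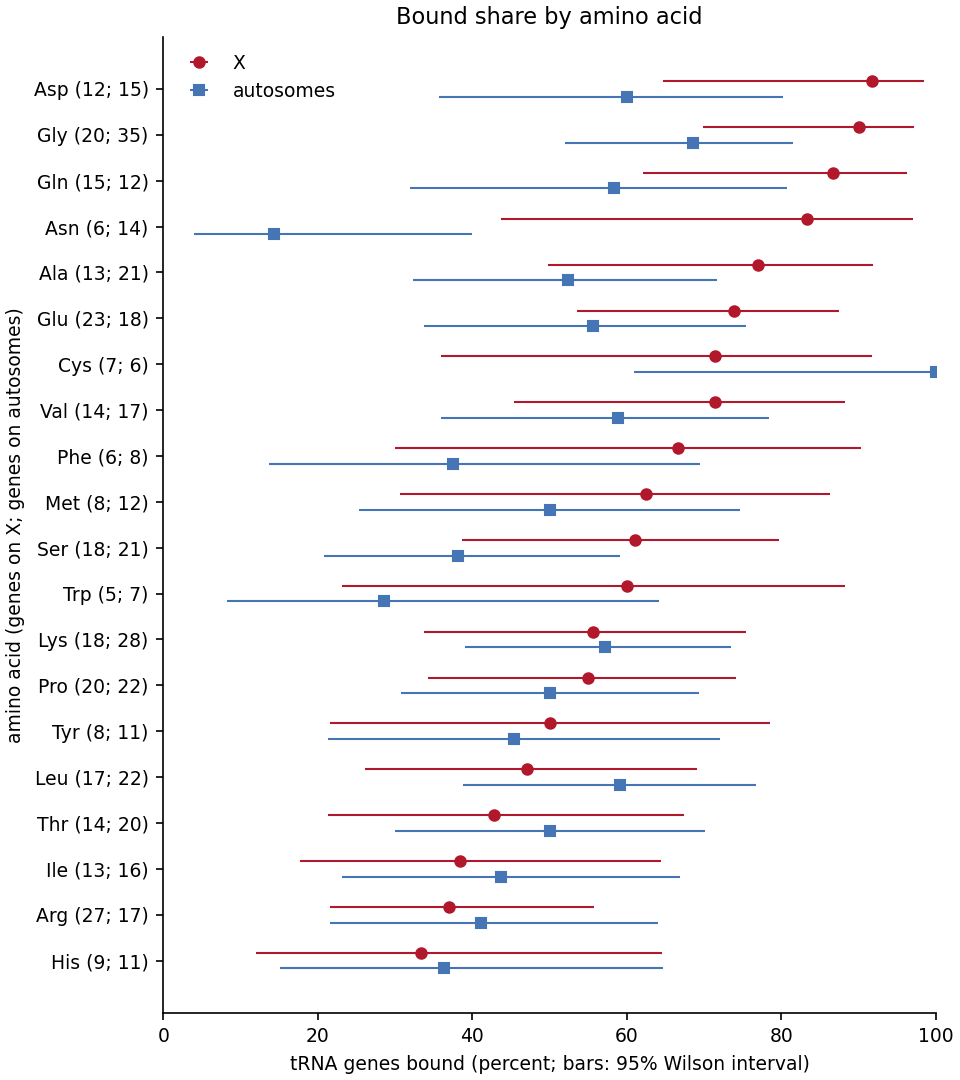
Points give the percent of tRNA genes bound in the main set for each amino acid on X (circles) and on the autosomes (squares), with 95% Wilson intervals, in the order of the X share. The numbers beside each name are the genes on X and on the autosomes, and aspartate and glycine stand at the top and arginine and histidine at the bottom.

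Anticodons were read from the anticodon arm of each gene, and 271 of the 276 could be resolved. The anticodon TCC of glycine had 15 of 16 genes bound on X and 18 of 20 on the autosomes. The glutamate anticodon TTC had 8 of 8 on X and 5 of 9 on the autosomes, while the other glutamate anticodon, CTC, had 9 of 15 on X. Within arginine, ACG had 7 of 13 bound on X and TCG 0 of 6, a count of 0 that allows a share of up to 50%. The autosomes had the opposite order, with 1 of 6 bound for ACG and 3 of 3 for TCG, and those 3 TCG genes have the same sequence as the X gene F17A2.t1. The TCG genes of X were in no replicate's own set either, and their joint signals ran from 25.02 in F38E9.t2 to 61.6 in F17A2.t1. Leucine AAG had 3 of 10, isoleucine AAT 4 of 11 and histidine GTG 3 of 9. The methionine genes fall into the initiator type, which carries C before the anticodon, with 2 of 3 bound on X, and the elongator type, with 3 of 5.

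Exact copies of the same gene were often called differently. The 276 genes have 106 distinct sequences, and 57 genes have a sequence that no other nuclear tRNA gene shares. With 50 bp on each side included, 274 of the 276 are distinct, for which a single differing base is enough. Reads reaching past the gene may thus be placed, although neither the read length nor the mapping filter is known here. There were 33 sequences with at least 2 copies on X, holding 203 genes. In 5 of them (29 genes) every copy was bound, in 1 (3 genes) none was, and in 27 (171 genes) some copies were bound and others not. Of all X tRNA genes 61.6% were bound, so a family of several copies can be mixed without any tie to its sequence. The calls also vary, since 33 of the 170 bound genes were in neither replicate's own set. Nothing particular to copies is therefore read from these counts. By number of copies, 30 of the 57 genes with a sequence of their own were bound (52.6%, 39.9 to 65.0), 36 of 65 with 2 to 9 copies in the genome (55.4%, 43.3 to 66.8) and 104 of 154 with 10 or more (67.5%, 59.8 to 74.4).

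The families with the most copies on X show both patterns. All 11 copies of the main glycine TCC gene were bound, with joint signals of 66.0 to 275 and a median of 89.4. These are not all separate peaks, since T10B10.t1 and T10B10.t2 share 1 with a signal of 179. R04E5.t2 and R04E5.t3 share another with 89.0, and neither of them was called in a replicate alone. All 8 copies of the glutamate TTC gene were bound too, from 81.3 to 225. In each of these 2 families 3 or 4 copies were called in both replicates. The main aspartate gene had 9 of 10 copies bound, and its exception, F22F1.t9, had a joint signal of 53.4 against 66.1 to 172 for the others. The families of isoleucine AAT (3 of 10 bound), histidine GTG (2 of 8) and leucine AAG (3 of 9) had most copies below the threshold. Their strongest copies had 186 in isoleucine, 142 in histidine, and 158 and 135 in leucine.

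**Figure D4:**
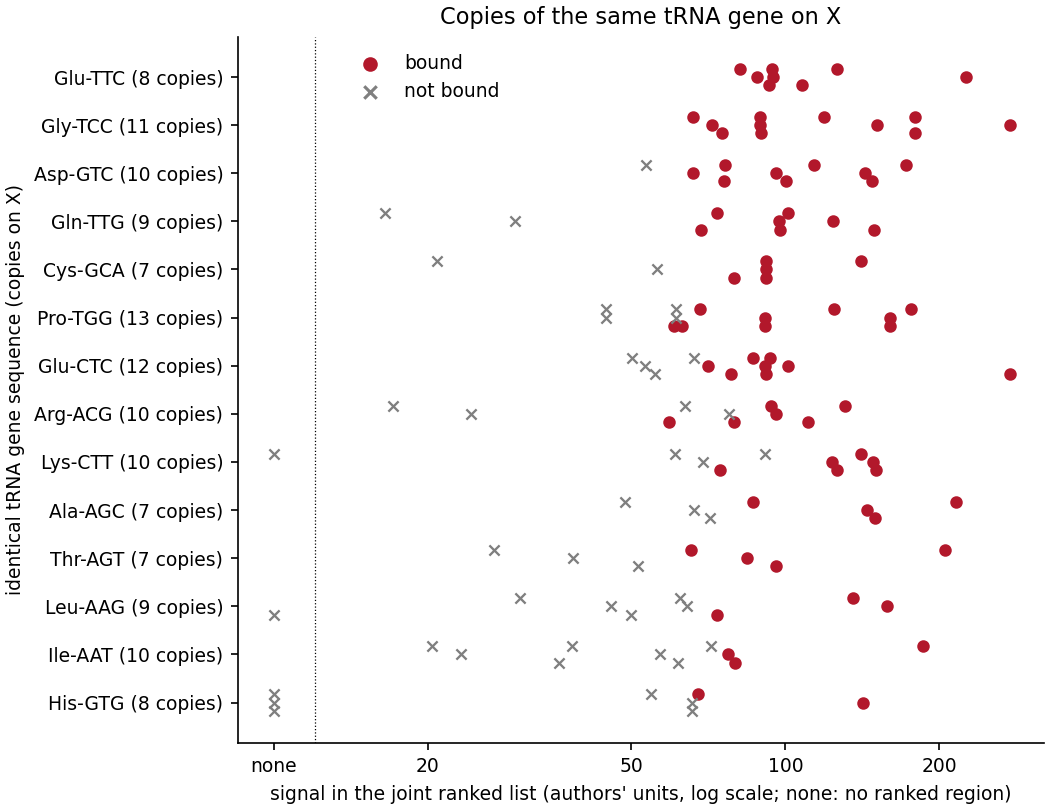
Each row is 1 tRNA gene sequence with at least 7 exact copies on X, and each point is a copy at its signal in the joint ranked list (authors' units, log scale), with copies that have no region at the left. Circles are bound and crosses not bound; points of copies that share a region coincide in value, and 12 of the 14 rows hold both kinds.

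The main arginine ACG sequence is carried by X alone, while the autosomal genes with this anticodon have other sequences. It has 10 identical copies, of which 6 were bound. Their joint signals were 131 in F09B9.t1, 111 in C03A3.t1, 95.8 in C14F11.t1, 93.8 in T01C1.t1, 79.2 in T06H11.t2 and 59.1 in F09B9.t2 among the bound copies. The copies that were not bound had 77.4 in F12D9.t4, 63.7 in C18A11.t2, 24.2 in K01A12.t3 and 17.1 in T06H11.t3. Identical genes thus had signals between 17.1 and 131, and T06H11.t2 and T06H11.t3 lie in the same host gene, unc-58, on opposite strands.

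Identical copies differ in their flanking sequence, and also in their place on X, their host gene and their neighbours, which are not separated here. The 50 bp upstream of the 2 strongest and the 2 weakest copies with a region are printed for this arginine sequence and for a leucine AAG sequence. The 9 copies of that leucine sequence also all lie on X, and autosomal leucine AAG genes have other sequences. Capitals mark G and C, and the first 2 of each group of 4 were bound.
F09B9.t1 upstream (chrX:10145106-10145155, + strand): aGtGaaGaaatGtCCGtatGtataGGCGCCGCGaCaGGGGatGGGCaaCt
C03A3.t1 upstream (chrX:11252663-11252712, - strand): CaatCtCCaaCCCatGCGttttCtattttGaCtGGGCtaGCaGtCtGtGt
K01A12.t3 upstream (chrX:8624533-8624582, - strand): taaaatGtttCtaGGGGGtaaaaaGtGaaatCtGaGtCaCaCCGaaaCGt
T06H11.t3 upstream (chrX:10133044-10133093, - strand): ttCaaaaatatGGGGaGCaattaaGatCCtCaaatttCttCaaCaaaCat
C04E7.t1 upstream (chrX:353337-353386, - strand): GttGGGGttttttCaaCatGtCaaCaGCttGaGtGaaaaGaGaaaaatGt
F14B8.t1 upstream (chrX:6903196-6903245, - strand): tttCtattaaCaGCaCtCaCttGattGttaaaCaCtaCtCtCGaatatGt
C05C9.t2 upstream (chrX:11163001-11163050, - strand): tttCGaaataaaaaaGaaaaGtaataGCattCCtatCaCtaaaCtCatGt
C48C5.t4 upstream (chrX:8956002-8956051, - strand): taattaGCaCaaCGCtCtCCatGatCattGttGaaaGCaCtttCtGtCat

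The share of A and T upstream differed between bound and other genes. In the 50 bp before the gene, A and T made up 58.0% ± 8.15 at bound X genes (SD, n = 170 genes) and 62.3% ± 8.77 at X genes that were not bound (SD, n = 106 genes). Of the 128 X genes below the X median of 60%, 94 were bound (73.4%, 65.2 to 80.3), against 76 of the 148 at or above it (51.4%, 43.4 to 59.3). The order was the same in each replicate alone, with 70 and 41 genes called in replicate 1 and 69 and 50 in replicate 2. Autosomal tRNA genes showed the same direction with a lower A and T share throughout, 54.1% ± 9.07 at bound genes (SD, n = 171 genes) and 57.1% ± 10.1 at the others (SD, n = 165 genes). Among the printed copies the arginine gene follows this order, with 46% and 54% at the bound and 62% and 70% at the other copies. The leucine gene does not, with 64% and 68% at the bound and 74% and 62% at the others. Genes are not replicates, and what lies behind the difference was not tested.

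The same sequence can also be compared between chromosomes. There were 43 tRNA gene sequences with copies both on X and on the autosomes. Of their X copies 124 of 185 were bound (67.0%, 60.0 to 73.4) and of their autosomal copies 131 of 223 (58.7%, 52.2 to 65.0). The X share was the higher in 21 sequences, the lower in 12 and equal in 10. In replicate 1 alone the 2 shares were 44.9% and 43.9%, and in replicate 2 alone 48.1% and 38.6%. Single sequences went both ways. The main asparagine gene had 5 of 5 copies bound on X and 2 of 13 on the autosomes, while the main histidine gene had 2 of 8 on X and 3 of 3 on the autosomes. These families were picked after their values were seen.

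The histidine copies of X are largely 1 cluster. There 6 of the copies, F28H6.t2 to F28H6.t7, stand in alternating direction within chrX:14135045-14137010. None was bound in the main set or in either replicate alone. Their best region, with its summit inside F28H6.t2 at 23 bp from the first base, had a joint signal of 65.7, with 28.3 in replicate 1 and 36.0 in replicate 2, and F28H6.t3 and F28H6.t6 had no region in any ranked list. The 2 bound copies, C06G1.t1 with 142 and C49F5.t1 with 67.4, lie elsewhere on X. The nearest summit of the main set was 19388 bp or more from each gene of the cluster. The spacing in the cluster repeats, with 494 bp at both gaps between facing 5′ ends and 191, 178 and 177 bp between facing 3′ ends. Whether reads can be placed at a single copy there was not tested, so a missing region may not mean missing binding.

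In all, X holds 43 clusters in which neighbouring tRNA genes are at most 500 bp apart, with 108 genes. Every gene was bound in 22 clusters, none in 10 and some in 11. Pairs of neighbours in such clusters number 65. Where the 5′ ends faced each other, both genes were bound in 15 of 24 pairs, 1 gene in 1 pair and neither in 8. Where the 3′ ends faced each other these counts were 7, 5 and 4 of 16 pairs, and for genes in the same direction 10, 7 and 8 of 25. A shared summit can count for both genes, and only 2 of the 24 pairs with facing 5′ ends had a summit of its own for each gene, with 13 pairs having 1 such gene.

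The intervals of the 3 spacing classes overlapped. Genes with another tRNA gene within 500 bp were bound in 66 of 108 cases (61.1%, 51.7 to 69.8), those with the next one further off but within 5000 bp in 40 of 71 (56.3%, 44.8 to 67.3) and those with none within 5000 bp in 64 of 97 (66.0%, 56.1 to 74.6). Inside protein-coding genes 63 of 96 were bound (65.6%, 55.7 to 74.4), and outside them 107 of 180 (59.4%, 52.1 to 66.3). Replicate 1 alone had the opposite order, with 35 of 96 inside and 76 of 180 outside, and replicate 2 alone had 42 and 77. Host and tRNA gene pointed the same way in 51 cases, of which 35 were bound, and in opposite ways in 45, of which 28 were bound. Of the 12 members with an intron 7 were bound, 6 of them in both replicates' own sets.

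The bound share varied along X. With X cut from the left end into 10 stretches of equal length, stretches 2, 3 and 4 had the highest shares, with 10 of 12, 11 of 13 and 14 of 17 genes bound. Stretch 1 had 5 of 15 (33.3%, 15.2 to 58.3) and stretch 9 had 7 of 22 (31.8%, 16.4 to 52.7). The most crowded were stretch 5, with 34 of 54, and stretch 8, with 31 of 53. In the first 20 percent of the length 15 of 27 genes were bound (55.6%, 37.3 to 72.4), from 20 to 70 percent 100 of 140 (71.4%, 63.5 to 78.3), and in the last 30 percent 55 of 109 (50.5%, 41.2 to 59.7). Replicate 1 alone did not keep this order, with 13 of 27, 59 of 140 and 39 of 109 genes called, and replicate 2 alone had 12, 68 and 39. These wider cuts were drawn after the shares were seen. The upstream A and T difference had the same direction in all 3 cuts, with 10 of 17 genes below the median bound against 5 of 10 others in the first, 84.5% against 62.2% in the next and 66.0% against 35.7% in the last.

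**Figure D5:**
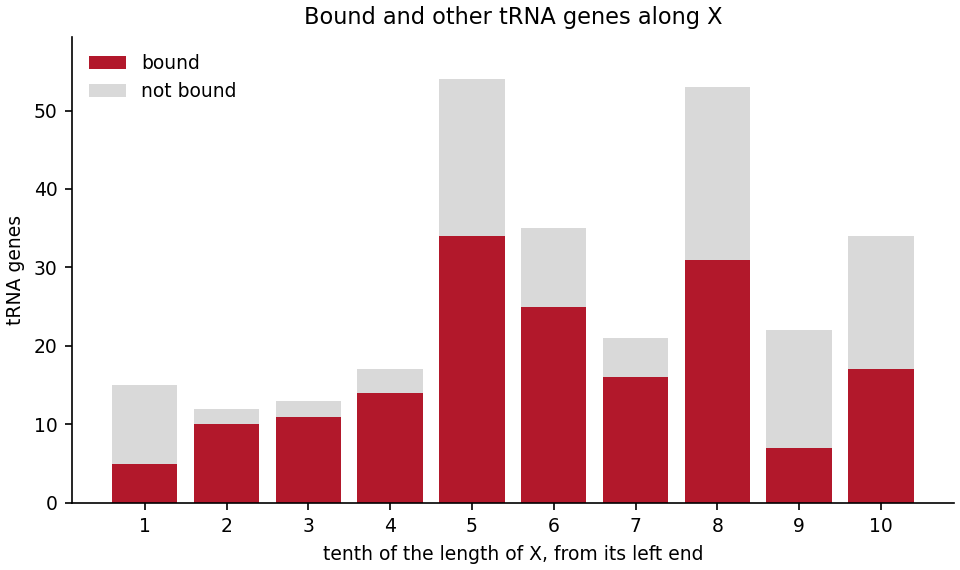
Bars count the tRNA genes in each of 10 equal stretches of X, numbered from the left end, with the bound genes of the main set at the bottom and the others on top. Stretches 5 and 8 hold 54 and 53 genes, and stretches 1 and 9 have the lowest bound shares, 5 of 15 and 7 of 22.

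The internal promoter was recognisable in nearly all members. The B box was searched as GTTCNANNC on the strand of the gene and was found in 268 of 276 members (97.1%), against 1.34% of all 72 bp windows laid end to end over both strands of X. The A box, searched by its usual consensus from the first 30 bases on the same strand, was found in 255 (92.4%), against 0.576% of the windows. A TTTT run stood within 40 bp after 273 genes (98.9%), a median of 4 bp after the last base, and such a run is in 43.6% of 40 bp windows of X. X genes without a B box match were bound in 6 of 8 cases (40.9 to 92.9) and those with one in 164 of 268 (55.2 to 66.8). The autosomes had the opposite order, with 5 of 17 genes without a match bound and 166 of 319 with one. Not all of the 6 have a peak of their own, since C16B8.t2 and C16B8.t3 share a summit. C28G1.t5 was counted through a summit nearer to C28G1.t4. Nothing about the B box is therefore read from these counts.

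Genes without an A box match were bound in 7 of 21 cases (33.3%, 17.2 to 54.6) and genes with one in 163 of 255 (63.9%, 57.9 to 69.6). On the autosomes 7 of 29 genes without a match were bound and 164 of 307 with one. The 21 X genes were parted into 2 kinds after their calls were seen. Serine accounts for 13, of which 7 were bound, and the strongest serine gene, C53C7.t2, is among them. Of the 8 others, spread over arginine, glutamate, glycine, leucine, proline and an undetermined gene, 0 were bound, which allows a share of up to 37.5%, against 159 of 250 genes with a match. None of the 8 was in a replicate's own set. Of the 8, 5 have a region in the joint list with signals of 18.1 to 45.3, and 3 have none. Each has a sequence found once in the genome, a class with 30 of 57 X genes bound (52.6%). The 250 genes with a match include many with several copies, so match and copy number are not separated here.

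K01A12.t1, printed above, is the nearest to a single change. It differs from the 10-copy arginine ACG gene by C11G alone, counted from the first base of the gene with the base of F09B9.t1 first, and position 11 lies in the A box. It had no region in any of the ranked lists. Its neighbour K01A12.t3, an intact copy in the same cluster, was not bound either and had a joint signal of 24.2, so the change and the place cannot be told apart here.

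Annotated tRNA pseudogenes gave a further comparison. On X 0 of the 29 in RefSeq were bound in the main set, which allows a share of up to 10.3%, and 0 in either replicate's own set. On the autosomes 6 of 180 were bound (3.33%, 1.54 to 7.08). Genes annotated as intact were bound in 61.6% on X and 50.9% on the autosomes. X genes of other biotypes were bound in 5.99%, a share that 0 of 29 allows, so the pseudogenes of X are not told apart from these.

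Set beside other peaks, those at X tRNA genes were of moderate height and were more often in both replicates' own sets. Their median signal in the main set was 97.9 (n = 149 peaks), against 86.5 for the 237 X peaks away from tRNA genes and 104 for the 156 peaks at autosomal tRNA genes. The highest reached 275, against 483 among the other X peaks. Of the 149, 6 were among the 100 highest of all 1637 peaks, against 21 of the 237 other X peaks. Of the 156 peaks at autosomal tRNA genes 1 was among them. The sets of both replicates held 71 of the 149 peaks at X tRNA genes (47.7%, 39.8 to 55.6) and 81 of the 237 other X peaks (34.2%, 28.4 to 40.4). The peaks at autosomal tRNA genes, with 48.1%, were close to those of X. Of the 149 peaks, 28 (18.8%) had their summit in the promoter window of a protein-coding gene, from 1000 bp upstream to 200 bp downstream of its start. The same count was not made for other peaks or for the whole of X, so nothing is read from it.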

How the data were processed

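MADF-9 ChIP-seq peak lists of 1 group with 2 biological replicates were analysed. The labels number the replicates and give each a biosample of its own. The authors deposited peak regions on ce11, per the labels, and these files hold no read counts. Each deposited region has a signal, the strength given by the peak caller, and a score, the scaled IDR. In ranked lists the authors also give the −log10 of the IDR. The score matched 100.0% of jointly ranked regions within 1 unit, stops at 1000, and is at least 830 in the main set, an IDR of 0.01. The aligner, the caller and their versions are not known here. The main set leaves out 115 ranked regions that pass this score, and these reach 0 X tRNA genes. Other deposited columns used were the summit offsets in bp.

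Genes came from the Ensembl annotation of WBcel235 and amino acids from RefSeq. Anticodons were read by script from a stem of 5 base pairs (at least 4 of them paired) closing a loop of 7 bases, and kept where the codon codes for that amino acid. Shares carry 95% Wilson intervals, and a count of 0 allows a share of up to 3 genes of the total. No p-value was computed, since there is 1 group and genes are not replicates. Summit assignment was tested on simulated data. Alternatives were other lists, windows, cuts and gene subsets.

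Members named by rule were the 10 strongest bound, the 5 weakest bound, the 5 strongest not bound, the strongest of each amino acid with at least 10 X genes, the most shared summits and 2 on each side of 250 bp. Sequences were left out where an identical copy lies on a chromosome not printed here. Families, clusters, the A box split and the upstream A and T share were singled out after their values were seen. The members and lists were chosen with earlier results of these data known. Tools were Python 3.11.15, pandas 2.3.3, scipy 1.17.1, Biopython 1.88 and matplotlib 3.10.9.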

Additional observations from a re-analysis of the deposited data

How the results depend on the processing

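Of 84 values from 14 alternatives for 6 results, 52 stayed within the 95% interval of the reported value and 32 left it. The alternative limited to genes with RefSeq coordinates holds the same genes as the reported setting. Its values repeat the reported ones, so it tests nothing, yet it is among the counts given here. All settings draw on the same 2 libraries. The X share exceeded the autosomal share in 15 of 15 settings, the reported one included. The share inside protein-coding genes exceeded that outside in 13, the exceptions being replicate 1 alone, by -5.76 percentage points, and genes whose sequence is found once, by -12.3. With 1 replicate left out, the share bound ranged from 40.2% to 43.1% on X and from 31.0% to 37.2% on the autosomes. It ranged from 36.5% to 43.8% inside and from 42.2% to 42.8% outside protein-coding genes on X, and the median X signal from 60.6 to 65.4, in lists with their own scale. With only peaks of score 1000, the shares were 54.0% on X, 42.6% on the autosomes and 55.2% inside coding genes. With the upper 50% of peaks by signal they were 42.0%, 33.0% and 44.8%, with 40.6% outside coding genes, and the median X signal was 121.5, higher by construction. With summits in the gene body only they were 40.6%, 35.1%, 47.9% and 36.7% in the same order. The X share was 54.3% with 100 bp added on each side and 68.5% with 1000 bp, where the share outside coding genes was 66.7%. With each summit given to its nearest gene, 53.6% on X, 45.2% on the autosomes and 50.6% outside coding genes were bound. Among genes with a sequence found once these were 52.6% on X, 36.0% on the autosomes and 43.8% inside coding genes, and the median summit lay 27 bp from the first base. The cause of these shifts was not tested, apart from windows and cuts that admit more or fewer summits. No paired analysis was possible because there is 1 group. Without read counts, what depth limits cannot be given, and without an untagged strain or control library, signal that does not come from MADF-9 was not measured here.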
